A study of Homo sapiens with 8 samples.

Results

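Molecular chaperones of the cytosol and of the mitochondrial matrix were followed at the level of their mRNA in IMR32 cells, with 49 genes chosen by symbol out of 58787 gene identifiers in the deposited count table. All 49 matched an identifier. They comprised 2 heat shock transcription factors, 5 cytosolic HSP70 genes, 3 genes of the HSP110 exchange factors, 2 cytosolic HSP90 genes, 7 HSP90 co-chaperones, 1 small heat shock protein, 9 cytosolic DNAJ genes (also called HSP40), 7 BAG proteins and other HSP70 partners, the 8 ubiquitous subunits of the CCT chaperonin, and 5 mitochondrial chaperones. IMR32 is an established human neuroblastoma line with amplified MYCN, labelled wild type, so the groups share that background and stand for 1 cell line. One group received CR31B at its IC50 (the value of which the labels do not give) for 6 h and the other the vehicle, 0.1% DMSO. CR31B is a rocaglate, a class of compounds that clamp the RNA helicase eIF4A onto mRNA and so block translation initiation. Each group had 4 libraries of polyadenylated RNA, described as biological replicates, of which replicate 1 was sequenced paired-end and replicates 2 to 4 single-end.

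Cytosolic chaperones bind unfolded stretches of protein and pass them along a relay. DNAJ proteins deliver clients to HSP70 and trigger its ATP hydrolysis, exchange factors of the HSP110 and BAG families release the nucleotide, and HSP90 with its co-chaperones completes the folding of kinases and hormone receptors, while CCT encloses actin and tubulin. The heat shock factors HSF1 and HSF2 raise transcription of many of these genes when unfolded protein accumulates. Mitochondria keep their own HSP60, HSP70 and HSP90 proteins for polypeptides arriving through the import channels.

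Total counts per library ran from 43687828 to 64715535, and the 49 genes held 1.36% to 1.80% of them. Levels are given as CPM, counts scaled to a common library size by the TMM method, which takes the scale from the bulk of the genes. All 10 neuroblastoma markers examined, HAND2, GATA3 and DBH among them, were over 1 CPM in each library. Their summed level was 3054 to 4384 CPM in the libraries labelled CR31B and 3052 to 4139 CPM in those labelled DMSO. The 5 leukocyte and 5 epithelial markers stayed under 1 CPM everywhere, with CD3E, KRT5, KRT14 and KRT20 at 0. Of 6 fibroblast markers 2 were over 1 CPM in every library (COL1A1 and PDGFRB, with a summed level for the list of 33.1 to 50.1 CPM under CR31B and 32.2 to 43.3 CPM under DMSO) and of 4 endothelial markers none did so in every library.

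The replicate 1 libraries stood apart before any chaperone was considered. Replicates 2 to 4 alone gave 6901 genes with a difference between the groups, and for 98.9% of these the replicate 1 pair differed in the other direction. The comparison therefore rests on replicates 2 to 4 (n = 3 in each group), and replicate 1 is given beside it as the library labelled CR31B and the library labelled DMSO. GATA3 was at 241 CPM in the library labelled CR31B replicate 1, where DMSO replicates 2 to 4 held 239.9 to 275 CPM, and at 857 CPM in the library labelled DMSO replicate 1, where CR31B replicates 2 to 4 held 804 to 932 CPM. Whether the labels of that pair are exchanged was not tested, so every value of replicate 1 and of the 8 libraries together holds only as labelled. CPM are shares of each library, so a change in the total mRNA per cell was not measured, and fewer cells of a kind and less RNA per cell cannot be told apart.

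Heat shock factors bind inverted repeats of the unit GAA, the known route by which heat raises chaperone transcription, so bases upstream of members that changed and members that did not pass the test are shown. The motifs GAANNTTC and TTCNNGAA (2 units each) and either one continued by a further inverted unit after 2 bases (3 units, which contain 2-unit matches) were sought on both strands in the 250 bases before each RefSeq transcript start of GRCh38.p14. Each 2-unit motif reads the same on both strands. Of all 35116 windows 11.6% held a 2-unit match and 0.441% a 3-unit match. RefSeq windows were at hand for 43 of the 49 genes, 64 windows in all, of which 17 (26.6%) held a 2-unit match and 6 (9.38%) a 3-unit match. The genes not matched were HSF1, HSPA14, FKBP4, ST13, STUB1 and CCT6A. A match describes the letters and is not a measured binding site.

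The stretches upstream of DNAJB1 (chr19:14518421-14518647, minus strand) and HSPA1B (chr6:31827488-31827734, plus strand) are printed 5′ to 3′ along the gene's strand, with matches in capitals, because these 2 genes were among the 4 whose mRNA fell most.
DNAJB1: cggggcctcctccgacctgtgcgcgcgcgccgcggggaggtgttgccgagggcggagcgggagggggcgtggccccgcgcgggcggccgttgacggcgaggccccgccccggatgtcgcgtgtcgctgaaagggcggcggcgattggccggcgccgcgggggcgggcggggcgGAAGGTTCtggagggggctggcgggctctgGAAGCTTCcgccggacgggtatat
HSPA1B: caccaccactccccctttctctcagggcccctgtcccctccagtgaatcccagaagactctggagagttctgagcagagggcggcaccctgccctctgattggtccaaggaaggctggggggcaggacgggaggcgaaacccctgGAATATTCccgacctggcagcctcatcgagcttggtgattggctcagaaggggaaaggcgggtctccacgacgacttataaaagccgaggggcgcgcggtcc

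Matches upstream of other members follow as 30 bases each, on the gene's strand and with the repeat units in capitals. The first group belongs to members that fell.
HSPA8 chr11:123062345-123062374 minus: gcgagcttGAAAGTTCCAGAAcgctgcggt
HSPA8 chr11:123062170-123062199 minus: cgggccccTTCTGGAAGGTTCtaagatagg
HSP90AA1 chr14:102087104-102087133 minus: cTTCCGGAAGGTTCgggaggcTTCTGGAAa
HSPB1 chr7:76302480-76302509 plus: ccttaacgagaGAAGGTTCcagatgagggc
DNAJA1 chr9:33025064-33025093 plus: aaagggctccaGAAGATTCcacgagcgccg
TCP1 chr6:159789815-159789844 minus: tcgtttgaggcGAAGGTTCaacctcttccc
The second group belongs to members whose difference did not pass the test, apart from BAG2, which rose. For members that did not pass only 3-unit matches are printed. Matches of 2 units upstream of HSPA1A, HSPA4L, DNAJB4, CCT2 and CHORDC1 are left out.
HSP90AB1 chr6:44247770-44247799 plus: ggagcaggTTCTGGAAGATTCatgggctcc
HSP90AB1 chr6:44247823-44247852 plus: tgagattgTTCTGGAAGCTTCtggattctg
CHORDC1 chr11:90223083-90223112 minus: ccgGAAAATTCGCGAAGGTTCCTGAAacgc
HSPD1 chr2:197500061-197500090 minus: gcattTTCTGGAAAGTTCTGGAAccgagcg
DNAJB6 chr7:157336865-157336894 plus: agagccgaGAACCTTCGCGAAggtggggcg
BAG2 chr6:57172191-57172220 plus: tcgaccgatagGAACCTTCgcgtgggggga
Counted by gene over any of its windows, a 2-unit match stood upstream of 7 of 14 members that fell, 1 of 7 that rose and 8 of 21 that did not pass the test. With the untested DNAJA4 it was 17 of 43 genes (39.5%). No share by gene was computed over all genes, and a gene can have several windows. The 11.6% of windows is therefore not a background for these counts. The rarer 3-unit match was upstream of 2 of the 14 (HSPA8 and HSP90AA1), 0 of the 7 and 4 of the 21 (HSP90AB1, CHORDC1, HSPD1 and DNAJB6). Both HSP90 genes have 3-unit matches, as printed above, but not in every window, and their other windows hold no match. The log2 fold change was -0.59 for HSP90AA1 and 0.17 for HSP90AB1, which did not pass. Whether the matches bear on either level was not tested.

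In the single-end libraries CR31B went with lower mRNA of HSPA8 and HSPA1B (HSP70 genes), DNAJB1 (an HSP40 gene) and HSP90AA1 (an HSP90 gene), and with higher mRNA of the immunophilin FKBP5. HSP90AB1, the most abundant member per length of annotated exon (merged over all transcripts of a gene), did not pass the test. Of 48 members tested, 15 fell, 8 rose and 25 did not pass an adjusted p of 0.05 (edgeR quasi-likelihood test, two-sided, Benjamini-Hochberg over 16696 genes). The 23 calls are 47.9% of the members tested, beside 41.3% of all genes tested. Members that fell were 15 of 48 against a background of 17.6%, and members that rose were 8 of 48 against 23.8%. The median log2 fold change was -0.13 over the members and -0.0070 over all genes tested. Past 1.5-fold stood HSPA8, HSPA1B, DNAJB1 and HSP90AA1, all of them lower, where 2.92% of all genes were that much lower and 7.98% that much higher. The CPM of the groups did not overlap in 20 members that were lower (background 24.4%) and 11 that were higher (27.7%, or 52.1% of all genes in either direction).

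Scaling moves the split between directions. With upper quartile scaling 3 members rose and 25 fell, and among all genes the share of calls that were higher went from 57.5% to 40.0%. Total count scaling gave 4 and 25 members, and a share of 43.1%. The 15 members that fell did so under both scalings too. With the replicate number as a block 35 members passed, 12 higher and 23 lower, while the share of all genes that passed went from 41.3% to 51.2% and that of genes lower from 17.6% to 23.1%. In what follows, values in brackets after such a setting are the adjusted p, preceded in places by the log2 fold change, and the strict filter keeps genes with 10 CPM in at least 3 libraries.

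**Figure D1:**
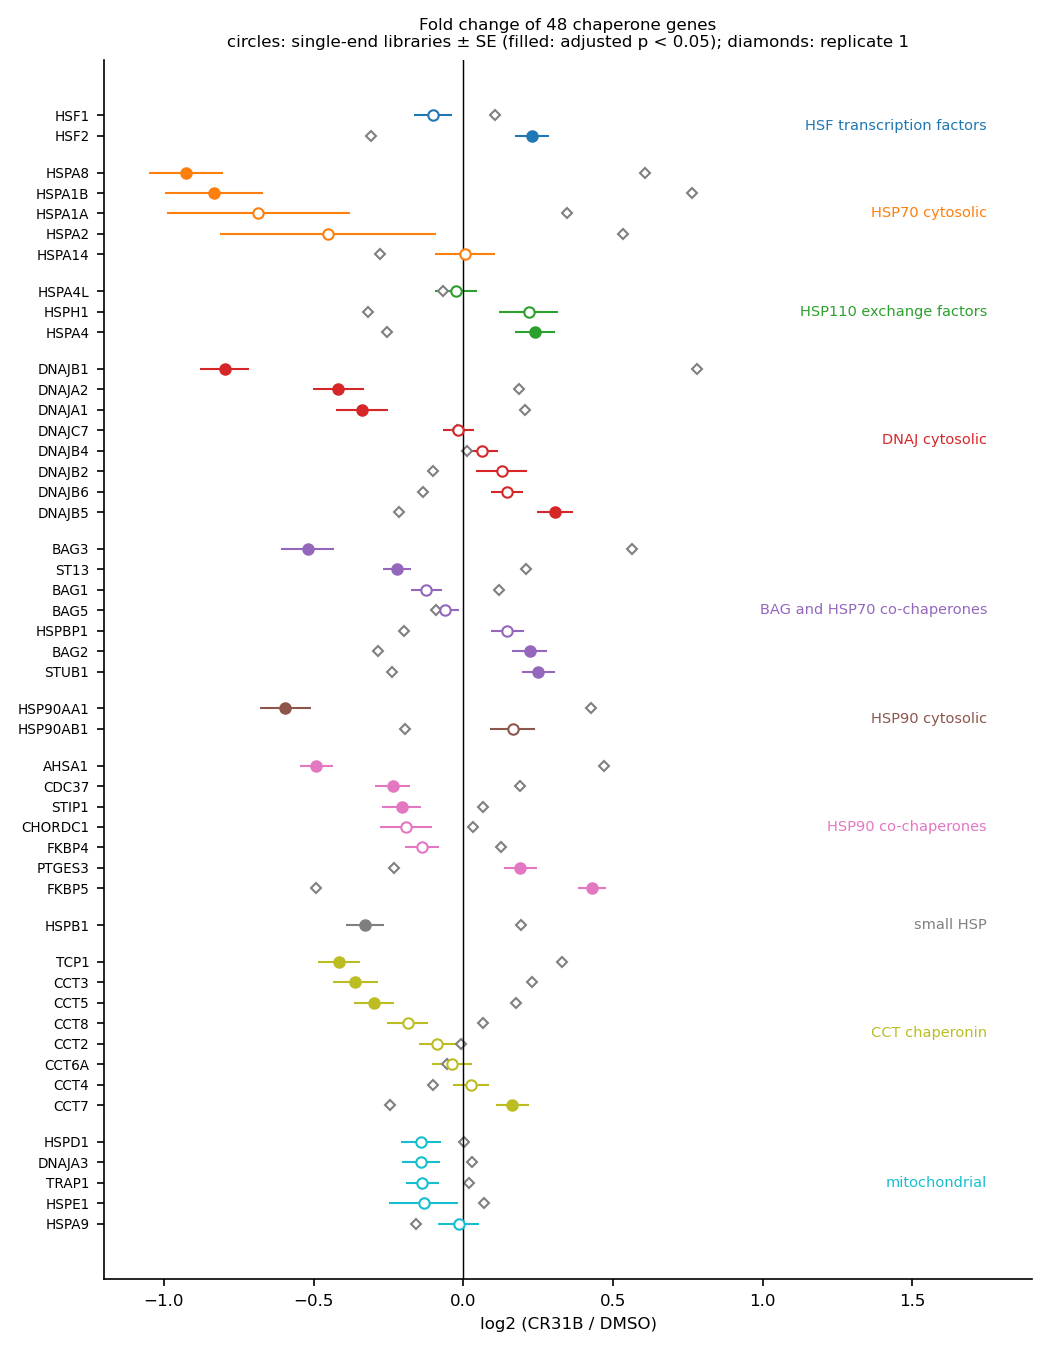
Log2 fold change of the 48 tested members, CR31B over DMSO, grouped by class and ordered within it. Circles are the fit of the 6 single-end libraries with bars of ± 1 SE, filled where the adjusted p was under 0.05, and grey diamonds are the single difference of the replicate 1 libraries as labelled. Filled circles reach -0.93 (HSPA8) on the lower side and 0.43 (FKBP5) on the higher side, and most diamonds lie across zero from their circle.

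In replicate 1 the members' differences ran the other way. All 23 members that passed in replicates 2 to 4 went the other way between the library labelled CR31B replicate 1 and the library labelled DMSO replicate 1. So did 98.9% of all genes that passed. Of all 48 members 41 went the other way, beside 84.0% of all genes tested. The sign was the same in replicates 2, 3 and 4 for 40 members (69.8% of all genes). Median differences over the members were -0.069, -0.18 and -0.099 on the log2 scale in replicates 2, 3 and 4, and 0.023 in replicate 1. With all 8 libraries as labelled 0 of 48 members passed, and 0 had an unadjusted p under 0.05 (edgeR, smallest adjusted p 0.707). In that fit the log2 fold change was -0.56 for HSPA8, -0.42 for DNAJB1, -0.34 for HSP90AA1 and 0.20 for FKBP5. DESeq2 on the same libraries also passed 0 members, with 1 at an unadjusted p under 0.05. Over all 16518 genes tested in that fit 0% passed and 1.24% had an unadjusted p under 0.05. The test of the difference between the layouts (an interaction term, whose spread comes from the single-end libraries because replicate 1 has 1 library per group) passed in 24 members, with 42.5% of all genes passing.

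**Figure D2:**
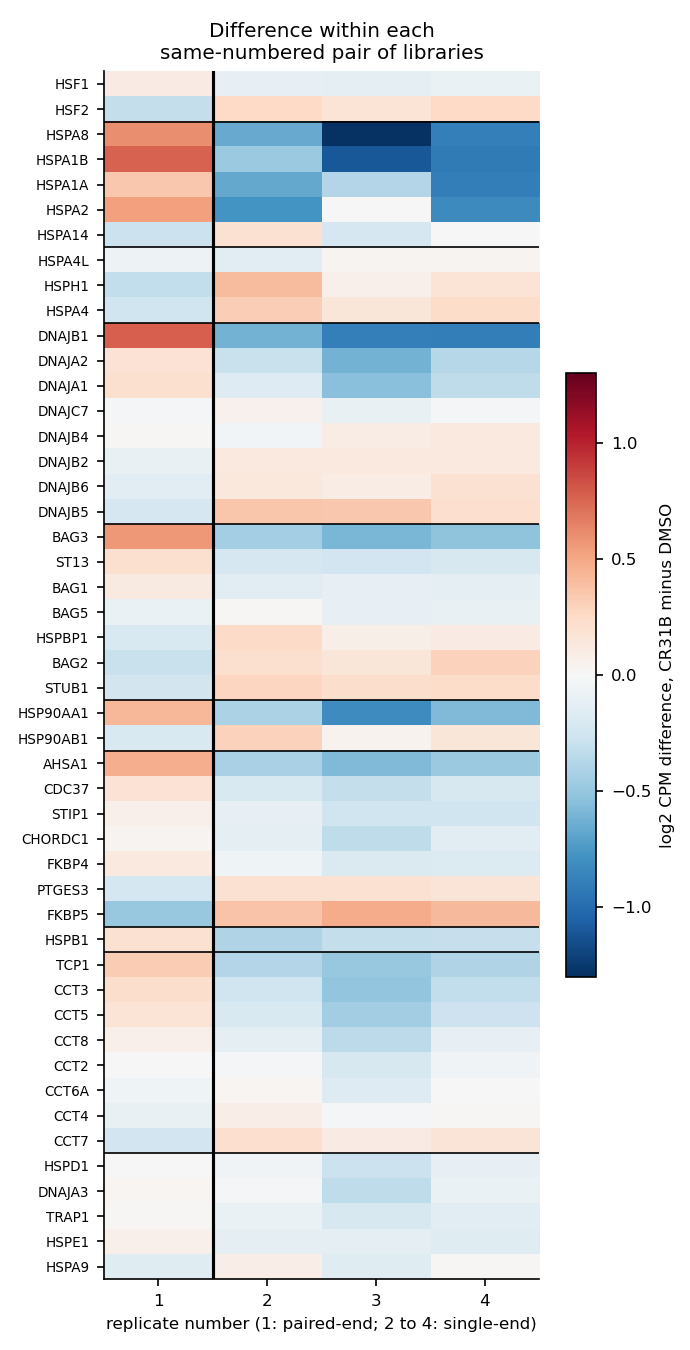
Log2 CPM difference, CR31B minus DMSO, within each same-numbered pair of libraries for the 48 tested members. Rows are genes by class, columns are replicate numbers, red is higher in the library labelled CR31B and blue lower. The replicate 1 column holds red where the other columns hold blue for HSPA8, HSPA1B, DNAJB1 and BAG3, with differences of 0.61, 0.76, 0.78 and 0.56 there.

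Of the 2 transcription factors that govern heat shock genes, HSF2 rose and HSF1 did not pass the test. HSF1, the main activator of the response, was at 91.6, 83.7 and 92.9 CPM in DMSO replicates 2, 3 and 4 and at 85.2, 76.9 and 87.4 CPM in the CR31B libraries. The groups overlapped, and its log2 fold change was -0.10 (SE 0.063, adjusted p = 0.227). HSF1 passed as lower with the replicate block (adjusted p = 0.0470), with the block and GC and length offsets (0.0288), with the strict filter (0.0457), and with upper quartile (-0.20, 0.0127) and total count (-0.18, 0.0175) scaling. HSF2, a related factor that binds the same repeats, was at 31.9, 33.3 and 33.8 CPM under DMSO and 38.0, 37.6 and 40.3 CPM under CR31B, with no overlap. HSF2 rose by 0.23 (SE 0.057, adjusted p = 0.00809) on the log2 scale, a call lost with offsets that correct for GC content and length (0.0930) and with upper quartile scaling (0.0645). In replicate 1 HSF2 was 38.5 CPM in the library labelled DMSO and 31.1 CPM in the one labelled CR31B.

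Among the cytosolic HSP70 genes the constitutive and the inducible forms were both lower. In that class 2 of 5 passed the test, where 41.3% of all genes did, and none rose. HSPA8 (ENSG00000109971, chr11:123057489-123063230, minus strand), the constitutive HSC70, was at 1386, 1476 and 1590.4 CPM in the DMSO libraries of replicates 2, 3 and 4. The matching CR31B libraries held 879.9, 605 and 856 CPM of HSPA8. Every CR31B value was under every DMSO value, replicate 3 being the lowest, and the means were 1484 ± 102 CPM for DMSO and 780.3 ± 153 CPM for CR31B (SD, n = 3). HSPA8 fell by 0.93 (SE 0.12, adjusted p = 0.000198) on the log2 scale. In replicate 1 the library labelled DMSO held 953 CPM and the library labelled CR31B 1453 CPM of it.

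HSPA1B (ENSG00000204388, chr6:31827735-31830255, plus strand), 1 of the pair of stress-inducible HSP70 genes, was at 17.0, 18.6 and 24.3 CPM in DMSO and 12.2, 8.63 and 12.8 CPM in CR31B libraries. The groups did not overlap, and HSPA1B fell by 0.83 (SE 0.16, adjusted p = 0.00221). The other gene of the pair, HSPA1A, was counted at 0.647, 0.726 and 1.27 CPM under DMSO and 0.400, 0.552 and 0.672 CPM under CR31B. HSPA1A overlapped between the groups and its log2 fold change of -0.68 (SE 0.30, adjusted p = 0.0980) did not pass, although it did with the block (adjusted p = 0.0220, or 0.0323 with GC and length offsets added) and with no filter (0.0242). These 2 genes are near-identical copies. Of the 75-base stretches of HSPA1A 69.3% also occur in other genes, and of those of HSPA1B 73.2%, so how their reads were divided is uncertain and their values are best read together. In addition 47.8% of the coding bases of HSPA1B lie in the overlapping annotation AL671762.1. HSPA2, known from germ cells, was under 0.32 CPM in the single-end libraries (0.275, 0.311 and 0.253 CPM under DMSO and 0.153, 0.311 and 0.134 CPM under CR31B), with a log2 fold change of -0.45 (adjusted p = 0.349). The ribosome-associated HSPA14 had a log2 fold change of 0.0057 (adjusted p = 0.970), which turned slightly negative under 11 of 16 other settings. Summed over the class, HSP70 mRNA was 1444, 1533 and 1656 CPM under DMSO and 938, 647 and 909 CPM under CR31B, of which HSPA8 made up nearly the whole.

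HSP110 proteins are the exchange factors that reset HSP70, and 1 of the 3 rose, beside 23.8% of all genes. None fell (edgeR), nor did any at an unadjusted p under 0.05, but HSPA4L did with GC and length offsets. HSPA4 was at 249, 275 and 289.7 CPM under DMSO and 311, 307 and 341 CPM under CR31B, without overlap, and rose by 0.24 (SE 0.067, adjusted p = 0.0159). That call is lost with GC and length offsets (0.294) and with upper quartile (0.0782) and total count (0.0501) scaling, and without CR31B replicate 4 (0.0683) or DMSO replicate 2 (0.0620). HSPH1, the heat-inducible HSP105, was at 279, 304 and 355 CPM under DMSO and 372, 319 and 402 CPM under CR31B. HSPH1 overlapped between groups, with a log2 fold change of 0.22 (SE 0.10, adjusted p = 0.100) and an adjusted p of 0.00940 with the replicate block. HSPH1 also passed with no filter (0.00213) and without CR31B replicate 3 (0.0171) or DMSO replicate 4 (0.0213), and stood at only 0.029 with GC and length offsets (0.850). HSPA4L, the remaining member, was at 31.3, 31.3 and 32.6 CPM and 28.2, 32.0 and 33.4 CPM in the same order, the groups overlapping at a log2 fold change of -0.023 (adjusted p = 0.819). With GC and length offsets HSPA4L was lower by a log2 fold change of -0.31 (0.00250, or 0.000346 with the block added). The per-length ratio of HSPA8 to HSPA4, computed within each library and chosen after these values were seen, was 5.82 ± 0.11 under DMSO and 2.59 ± 0.46 under CR31B (SD, n = 3). With 3 libraries against 3 a two-sided exact permutation test cannot give a p under 0.10, so ratios of this kind are described without a test. In replicate 1 the same ratio was 3.10 in the library labelled DMSO and 5.65 in the one labelled CR31B.

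The cytosolic DNAJ genes divided, with 3 of 8 tested lower (beside 17.6% of all genes), 1 higher (beside 23.8%) and 4 not passing. DNAJB1 (ENSG00000132002, chr19:14514770-14529770, minus strand), the inducible HSP40 whose upstream stretch is printed above, was at 119.8, 118 and 135 CPM under DMSO and 78.5, 63.4 and 72.3 CPM under CR31B. No CR31B value reached any DMSO value, and DNAJB1 fell by 0.80 (SE 0.082, adjusted p = 3.52e-05), from 124 ± 9.57 to 71.4 ± 7.60 CPM (SD, n = 3). The replicate 1 libraries gave 74.8 CPM for the one labelled DMSO and 129 CPM for the one labelled CR31B.

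DNAJA1 and DNAJA2 are the constitutive class A co-chaperones that deliver clients to HSPA8. DNAJA1, the most abundant of the class per length, was at 636, 643 and 696 CPM under DMSO and 565, 443 and 553 CPM under CR31B and fell by 0.34 (SE 0.087, adjusted p = 0.0102). DNAJA2 was at 75.3, 79.2 and 84.9 CPM under DMSO and 61.8, 51.7 and 65.7 CPM under CR31B and fell by 0.42 (SE 0.084, adjusted p = 0.00274). Neither gene overlapped between the groups, and in both CR31B replicate 3 was the lowest library. DNAJB5, a class B protein, moved the other way, from 30.5, 31.1 and 34.1 CPM under DMSO to 39.2, 39.6 and 39.6 CPM under CR31B without overlap. DNAJB5 rose by 0.31 (SE 0.060, adjusted p = 0.00216). DNAJB6, which restrains aggregation of polyglutamine proteins, had a log2 fold change of 0.15 (adjusted p = 0.0519), with 0.0122 under the replicate block and 0.0117 without CR31B replicate 3. DNAJB2, DNAJB4 and DNAJC7 had log2 fold changes of 0.13, 0.062 and -0.016, and DNAJB4 changed sign under 4 settings that alter scaling or correct for GC and length. DNAJA4 was listed at 0 in all 8 libraries and was not tested. A count of 0 allows up to 0.0464 to 0.0687 CPM in these libraries (3 counts of the total, counting error only). The class median was 0.023 and turned negative with upper quartile (-0.073) and total count (-0.056) scaling, GC and length offsets (-0.035) and a stricter filter (-0.020).

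**Figure D3:**
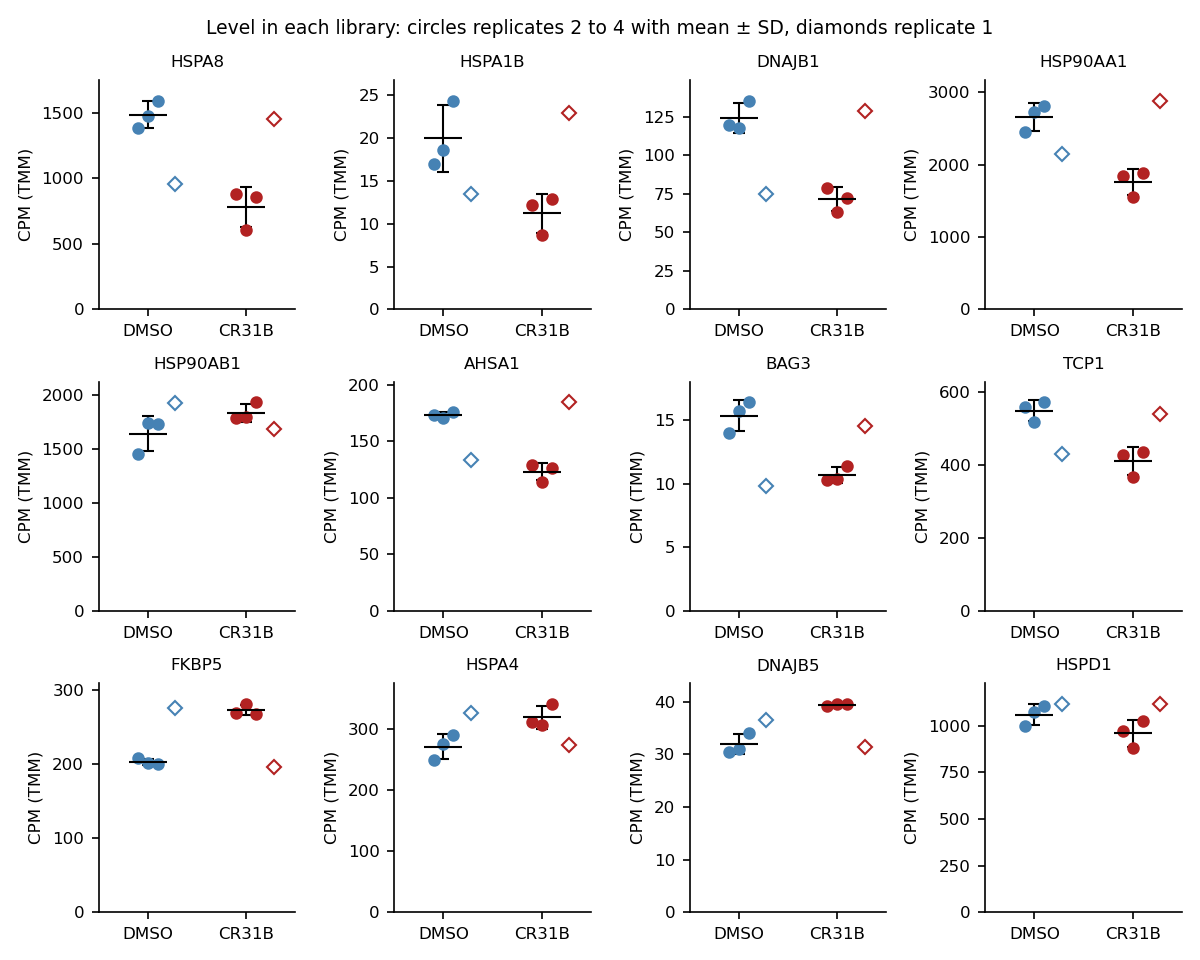
CPM of 12 members in each library, with DMSO in blue and CR31B in red. Circles are replicates 2 to 4, the black line and bar their mean ± SD, open diamonds the replicate 1 libraries as labelled, and each vertical axis starts at 0. Circles of the groups are apart in HSPA8, HSPA1B, DNAJB1, HSP90AA1, AHSA1, BAG3, TCP1, FKBP5, HSPA4 and DNAJB5, and narrowly in HSP90AB1. In these panels the diamonds stand in the reverse order.

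HSP70 partners changed in both directions, with 2 of 7 lower (beside 17.6% of all genes), 2 higher (beside 23.8%) and 3 not passing. BAG3, the stress-inducible member that couples HSP70 to selective autophagy, was at 14.0, 15.7 and 16.4 CPM under DMSO and 10.3, 10.4 and 11.4 CPM under CR31B. Its groups did not overlap and it fell by 0.52 (SE 0.088, adjusted p = 0.000952). ST13, known as HIP, which holds HSP70 in its client-bound state, was at 399, 415 and 408 CPM under DMSO and 343, 349 and 354 CPM under CR31B and fell by 0.22 (SE 0.046, adjusted p = 0.00335), again without overlap. Of the 75-base stretches of ST13 18.2% also occur in other genes, the pseudogene ST13P6 sharing the most.

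STUB1, the ubiquitin ligase CHIP that sends HSP70 clients to the proteasome, was at 51.2, 49.2 and 53.1 CPM under DMSO and 62.2, 57.7 and 62.7 CPM under CR31B and rose by 0.25 (SE 0.056, adjusted p = 0.00472). The log2 fold change of STUB1 was 0.16 with upper quartile scaling (0.0254) and 0.31 with GC and length offsets (0.00255). BAG2, which restrains that ligase, was at 40.4, 42.0 and 42.3 CPM under DMSO and 46.7, 46.7 and 51.9 CPM under CR31B and rose by 0.22 (SE 0.059, adjusted p = 0.0124). For both genes every CR31B library was above every DMSO library of replicates 2 to 4. The BAG2 call depends on settings. It turned to -0.026 with GC and length offsets, and it was lost with upper quartile scaling (0.0851), with total count scaling (0.0560), without CR31B replicate 4 (0.0583) and without DMSO replicate 2 (0.0501). Other genes share 42.4% of the 75-base stretches of BAG2 (RAB23 the most) and 28.2% of those of STUB1 (JMJD8 the most), with both strands searched. On the same strand 0% of the exonic bases of BAG2 and 0% of those of STUB1 lie in other genes. The deposited counts carry the word reverse in their name, but the strand setting is not described in the sources used here. BAG1, BAG5 and HSPBP1 had log2 fold changes of -0.12, -0.060 and 0.15. BAG1 passed as lower with the block (0.0201), GC and length offsets (0.0358), both (0.00600), upper quartile (-0.22, 0.00873) and total count (0.0151) scaling, the strict filter (0.0251) and without CR31B replicate 3 (0.0343). HSPBP1 passed as higher with the block (0.0262), GC and length offsets (0.22, 0.0179), both (0.00286) and without CR31B replicate 3 (0.0155). BAG5 passed as lower with GC and length offsets (-0.20, 0.0162), with the block added (0.00277), and with upper quartile (-0.16, 0.0145) and total count (-0.14, 0.0265) scaling.

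Of the 2 cytosolic HSP90 genes 1 fell and the other did not pass the test. HSP90AA1 (ENSG00000080824, chr14:102080738-102139699, minus strand), the inducible form, was at 2447, 2734 and 2819 CPM under DMSO and 1845, 1554 and 1893 CPM under CR31B. The groups did not overlap and HSP90AA1 fell by 0.59 (SE 0.084, adjusted p = 0.000305), from 2666 ± 195 to 1764 ± 184 CPM (SD, n = 3). HSP90AB1, the constitutive form, was at 1450.1, 1736 and 1724 CPM under DMSO and 1781, 1789.9 and 1929 CPM under CR31B, also without overlap, the CR31B libraries being the higher ones. The log2 fold change of HSP90AB1 was 0.17 (SE 0.076, adjusted p = 0.107) and passed with the block (adjusted p = 0.0125, or 0.0104 with GC and length offsets added) and with no filter (0.0278), while upper quartile scaling gave a log2 fold change of 0.068. Within each library, the per-length ratio of HSP90AA1 to HSP90AB1 was 0.927 ± 0.032 under DMSO and 0.546 ± 0.049 under CR31B (SD, n = 3), a ratio that no scaling of libraries can alter and that was chosen after the values were seen. For replicate 1 it was 0.633 in the library labelled DMSO and 0.974 in the library labelled CR31B.

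HSP90 co-chaperones followed no single direction, with 3 of 7 lower (beside 17.6% of all genes), 2 higher (beside 23.8%) and 2 not passing. AHSA1, the activator of the HSP90 ATPase, was at 174, 171 and 176 CPM under DMSO and 129.6, 114 and 126 CPM under CR31B. These groups did not overlap and AHSA1 fell by 0.49 (SE 0.056, adjusted p = 7.01e-05). CDC37, which loads kinases onto HSP90, was at 124, 124 and 131 CPM under DMSO and 108, 99.7 and 114 CPM under CR31B and fell by 0.24 (SE 0.058, adjusted p = 0.00802). STIP1, the HOP adaptor that joins HSP70 to HSP90, was at 283, 288 and 322 CPM under DMSO and 263, 241 and 269 CPM under CR31B and fell by 0.21 (SE 0.065, adjusted p = 0.0274). CDC37 and STIP1 did not overlap between groups either. With GC and length offsets CDC37 (0.217) and STIP1 (0.156) lost their calls, and STIP1 also lost it without CR31B replicate 3 (0.0697) or DMSO replicate 4 (0.126).

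FKBP5 (FKBP51), an immunophilin of steroid receptor complexes and a well-known glucocorticoid target, was the member with the largest rise in replicates 2 to 4, though not under every setting. It was at 208, 201 and 199.7 CPM under DMSO and 269.6, 281 and 268 CPM under CR31B, with no overlap, and rose by 0.43 (SE 0.047, adjusted p = 5.63e-05). With GC and length offsets the log2 fold change of FKBP5 was 0.21 (0.0133), below the 0.31 of STUB1. Its counterpart FKBP4 (FKBP52) had a log2 fold change of -0.14 (adjusted p = 0.0726). FKBP4 passed as lower with the block (0.0147, or 0.00791 with offsets), upper quartile (-0.23, 0.00307) and total count (0.00433) scaling, no filter (0.0389), the strict filter (0.0108), DESeq2 (0.0492) and without DMSO replicate 2 (0.0401). PTGES3 (p23), which stabilises the closed HSP90 dimer and is the most abundant co-chaperone here per length, was at 976, 929 and 1011 CPM under DMSO and 1121, 1065 and 1138 CPM under CR31B. PTGES3 rose by 0.19 (SE 0.055, adjusted p = 0.0189) without overlap, a call lost with GC and length offsets (0.158), upper quartile (0.111) and total count (0.0569) scaling, and without CR31B replicate 2 (0.0513), CR31B replicate 4 (0.0677) or DMSO replicate 3 (0.0779). CHORDC1, an HSP90-binding protein with 3 separate matches in its upstream window, had a log2 fold change of -0.19 (adjusted p = 0.108). CHORDC1 passed as lower with the block (0.00781), GC and length offsets (-0.41, 0.00370), both (-0.41, 4.50e-05), upper quartile (-0.29, 0.0120) and total count (0.0146) scaling, no filter (0.00964), the strict filter (0.0324) and without CR31B replicate 4 (0.0429).

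HSPB1 (HSP27) was the one small heat shock protein in the set. It was at 87.7, 96.3 and 92.0 CPM in DMSO replicates 2, 3 and 4 and at 66.9, 77.9 and 74.8 CPM in the CR31B libraries. No values overlapped, and HSPB1 fell by 0.33 (SE 0.065, adjusted p = 0.00240), from 92.0 ± 4.30 to 73.2 ± 5.70 CPM (SD, n = 3). The replicate 1 libraries held 92.3 CPM (labelled DMSO) and 106 CPM (labelled CR31B).

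CCT assembles from 8 different subunits in equal number. Of their mRNAs 3 fell (beside 17.6% of all genes), 1 rose (beside 23.8%) and 4 did not pass the test. TCP1, the alpha subunit, was at 559, 517 and 572 CPM under DMSO and 429, 369 and 437 CPM under CR31B and fell by 0.42 (SE 0.072, adjusted p = 0.00107). CCT3, the most abundant per length, was at 761, 855 and 883 CPM under DMSO and 635, 601 and 709 CPM under CR31B and fell by 0.36 (SE 0.076, adjusted p = 0.00343). CCT5 was at 558, 585 and 606 CPM under DMSO and 488, 429 and 503 CPM under CR31B and fell by 0.30 (SE 0.067, adjusted p = 0.00490). Of the 75-base stretches of CCT5 27.6% also occur in other genes on either strand, the antisense gene AC012640.4 sharing the most. On the same strand 0% of the exonic bases of CCT5 lie in other genes. In TCP1, CCT3 and CCT5 the groups did not overlap and CR31B replicate 3 was the lowest library. CCT8 was at 405, 406 and 415 CPM under DMSO and 371, 320.2 and 386 CPM under CR31B, apart as well, at -0.19 (SE 0.068, adjusted p = 0.0510). CCT8 passed as lower under 10 of 16 other settings, among them DESeq2 (0.0223), limma voom (0.0448), RLE scaling (0.0462), the block (0.00860) and upper quartile scaling (-0.28, 0.00233).

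CCT7 rose, with a mean of 406 ± 16.6 CPM under DMSO and 454 ± 18.9 CPM under CR31B (SD, n = 3) and a log2 fold change of 0.16 (SE 0.054, adjusted p = 0.0331). The CCT7 call was lost with RLE (0.0570), upper quartile (0.251) and total count (0.148) scaling and when CR31B replicate 2 (0.0594), CR31B replicate 4 (0.120), DMSO replicate 2 (0.119) or DMSO replicate 3 (0.0827) was left out. CCT2, CCT4 and CCT6A had log2 fold changes of -0.087, 0.026 and -0.038 and did not pass, although CCT2 did as lower with upper quartile (-0.18, 0.0125) and total count (-0.17, 0.0178) scaling and the strict filter (0.0499). The per-length ratio of TCP1 to CCT7 was 0.987 ± 0.061 under DMSO and 0.659 ± 0.040 under CR31B (SD, n = 3), with 0.639 and 0.951 in the replicate 1 libraries labelled DMSO and CR31B. That pair was chosen after its values were seen. In CPM per kilobase of exon the subunits spanned 87.3 (CCT2) to 207 (CCT3) under DMSO and 81.0 (CCT5) to 161 (CCT3) under CR31B.

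**Figure D4:**
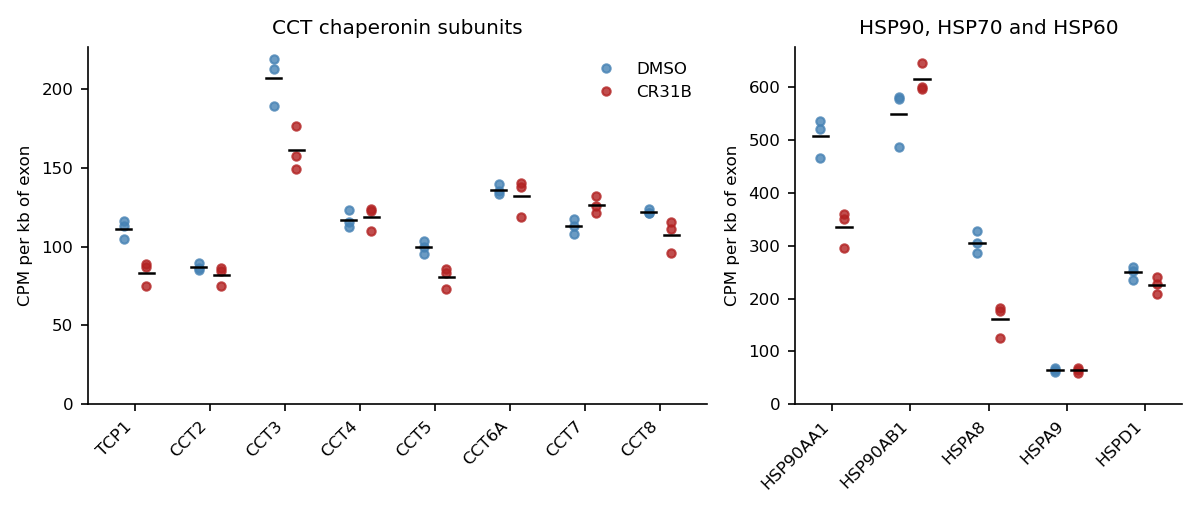
CPM per kilobase of exon in the single-end libraries for the 8 CCT subunits (left) and for HSP90, HSP70 and HSP60 genes (right), DMSO in blue and CR31B in red, with a black line at each mean of 3 libraries. TCP1, CCT3 and CCT5 are lower under CR31B while CCT7 is higher, and HSP90AA1 lies near HSP90AB1 under DMSO and below it under CR31B.

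None of the 5 mitochondrial chaperones passed the test (edgeR, 41.3% of all genes passing), and none did so with DESeq2 or limma voom. HSPD1, TRAP1 and DNAJA3 each passed as lower with upper quartile and total count scaling and with the strict filter. At an unadjusted p under 0.05 stood 1 of the 5, TRAP1. HSPD1 (HSP60), the chamber of the matrix, was at 999.6, 1074 and 1105 CPM under DMSO and 969, 883 and 1025 CPM under CR31B. The groups overlapped at a log2 fold change of -0.14 (SE 0.067, adjusted p = 0.116). HSPD1 passed with the block (0.0263, or 0.0206 with offsets), no filter (0.0284), the strict filter (0.0184) and upper quartile scaling (-0.24, 0.00578). DNAJA3 was at 82.4, 88.1 and 86.4 CPM under DMSO and 81.0, 70.3 and 81.6 CPM under CR31B, with a log2 fold change of -0.14 (SE 0.065, adjusted p = 0.106), or -0.24 with upper quartile scaling (0.00646) and 0.0581 as the adjusted p with the block. TRAP1, the HSP90 of the matrix, was at 163, 160.4 and 169 CPM under DMSO and 154, 139 and 154 CPM under CR31B, at -0.14 (SE 0.055, adjusted p = 0.0690). With the block TRAP1 passed (0.0154), with upper quartile scaling it was at -0.23 (0.00202), and with GC and length offsets at -0.059 (0.537). Of the 75-base stretches of TRAP1 17.6% also occur in other genes on either strand, DNASE1 sharing the most. On the same strand 1.24% of the exonic bases of TRAP1 lie in other genes. DNAJA3 and TRAP1 were each lower in every CR31B library than in any DMSO library of replicates 2 to 4. The same held for 24.4% of all genes tested.

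HSPE1 (HSP10), the lid of that chamber, was counted at only 4.85, 4.26 and 5.04 CPM under DMSO and 4.46, 3.93 and 4.50 CPM under CR31B, with a log2 fold change of -0.13 (adjusted p = 0.395). Since 47.9% of the coding bases of HSPE1 also belong to the readthrough annotation HSPE1-MOB4, its counts are uncertain and its ratio to HSPD1 is not given. HSPA9 (mortalin), the motor of protein import, had means of 535 ± 27.7 CPM under DMSO and 529 ± 42.7 CPM under CR31B and a log2 fold change of -0.015 (adjusted p = 0.882), which became -0.13 with GC and length offsets (0.219) and passed when the block was added (0.0456). The per-length ratio of HSPD1 to HSPA9, chosen after its values were seen, was 3.85 ± 0.035 under DMSO and 3.53 ± 0.031 under CR31B (SD, n = 3). It was 3.71 and 4.15 in the replicate 1 libraries labelled DMSO and CR31B.

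By level per length in the DMSO libraries the order began with HSP90AB1 (549 CPM per kilobase), HSP90AA1 (508), HSPA8 (306), PTGES3 (286), HSPD1 (249.6), DNAJA1 (241) and CCT3 (207). Under CR31B the same genes stood at 615, 336, 161, 326, 226, 191 and 161 CPM per kilobase. HSPA8 thus stood above PTGES3, HSPD1 and DNAJA1 under DMSO and below all 3 under CR31B. The lengths are all annotated exon bases of a gene (2980 for HSP90AB1, 5248 for HSP90AA1 and 4849 for HSPA8). The order therefore depends on the annotation and need not be that of the transcripts present. In CPM not divided by length, HSP90AA1 (2666) was above HSP90AB1 (1637) under DMSO.

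Further chaperone genes, 94 in 6 lists, also went both ways. Of 82 tested, 39 passed (47.6%, beside 41.3% of all genes tested), of which 18 rose (23.8% of all genes) and 21 fell (17.6% of all genes), with a median log2 fold change of -0.084. Prefoldin and its relatives, which hand actin and tubulin to CCT, had 5 of 11 lower and 1 higher. In that list VBP1 fell by 0.37 (adjusted p = 0.000365) and PFDN4 fell by 0.36 (adjusted p = 0.00105), while PDRG1 rose by 0.77 (adjusted p = 2.39e-06). Other HSP90 partners had 5 of 22 higher and 1 lower, so 27.3% passed, fewer than the 41.3% of all genes. NUDC (0.40, adjusted p = 0.000145), TELO2 (0.31, adjusted p = 0.00415) and TTI1 (0.31, adjusted p = 0.000497) rose, TELO2 and TTI1 being parts of the complex that matures large PI3K-like kinases.

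Other cytosolic HSP70, BAG and small HSP genes had 8 tested of 14, with 3 lower and 1 higher. Of all genes tested 17.6% were lower and 23.8% higher. HSPA12A fell by 0.54 (adjusted p = 0.000371) and BAG6 fell by 0.29 (adjusted p = 0.00125), and SGTB rose by 0.26 (adjusted p = 0.00559). Other DNAJ genes of the cytosol or nucleus had 7 higher and 3 lower of 18, led by DNAJB14 (0.56, adjusted p = 3.32e-05), DNAJC6 (0.41, adjusted p = 0.00176) and DNAJC16 (0.40, adjusted p = 0.00108).

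Among mitochondrial proteostasis genes outside the 5 chaperones 4 of 15 tested rose, 6 fell and 5 did not pass, where 41.3% of all genes passed, and the difference from the 5 chaperones was not tested. CLPX, the unfoldase of the matrix protease ClpXP, rose by 0.80 (adjusted p = 3.81e-06), from 82.7 ± 3.59 to 144 ± 7.80 CPM (SD, n = 3). CLPB, a disaggregase of the intermembrane space, fell by 0.75 (adjusted p = 7.38e-05), from 156 ± 7.85 to 92.3 ± 12.0 CPM, and DNAJC30 fell by 0.39 (adjusted p = 0.00452). Both CLPX and CLPB were past 1.5-fold, in opposite directions. Of 8 regulators and companions of the heat shock response 3 fell and 0 rose (edgeR, with 1 higher at an unadjusted p under 0.05). Over all genes tested 17.6% fell and 23.8% rose. Among the 3 that fell were the polyubiquitin gene UBB (-0.33, adjusted p = 0.00243) and HSBP1 (-0.43, adjusted p = 0.000164), whose product binds HSF1. In replicate 1 all 39 of the called genes in these lists had the opposite sign, beside 98.9% of all genes called. With upper quartile scaling 41 genes of the lists fell, and with total count scaling 37. Of all genes tested 27.0% and 25.1% were lower under those scalings. These lists were drawn up with results of these data known.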

How the data were processed

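Polyadenylated RNA of IMR32 cells was sequenced in 8 libraries. The authors deposited raw counts per Ensembl gene, which the values show to be whole numbers without normalisation. The submitters' processing notes name STAR 2.7.2b, FastQC 0.11.7, edgeR 3.36.0, limma 3.50.3 and the build GRCh38, with no role for each. The counting tool is not given in the sources used here. The deposited counts carry the word reverse in their name, but their strand setting is not described. Per the labels' protocols a small RNA library kit was used with 15 PCR cycles, although protein-coding genes took 98.3% to 98.6% of the counts. No molecular identifiers are described, so precision from depth covers counting error only. Of 58787 identifiers 58515 were in GENCODE 29 (GRCh38), which gave positions, exon lengths and the bases shared between genes. Levels per length divide by all annotated exon bases of a gene, merged over its transcripts. HSPA14 is a symbol of 2 identifiers, and the one that keeps the symbol in the current name table was used.

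The main test was edgeR 4.0.16 under R 4.3.3 (quasi-likelihood, TMM scaling, filterByExpr, Benjamini-Hochberg over all genes tested, threshold 0.05) on the 6 single-end libraries, and on all 8 with layout as a covariate. Standard errors are the fold change over the root of the F statistic. P-values measure the spread between these samples. Same-numbered single-end libraries deviated together (correlations of 0.21, 0.38 and 0.16 for replicates 2, 3 and 4), so the replicate block is printed where it changes a call. CPM per library use TMM factors of all 8 libraries, and pair differences are in log2 CPM (prior count 1). The closest pair of libraries had a mean chi-square per gene of 7.29, so none was treated as a copy. Alternatives were the block, GC and length offsets, scaling by RLE, by upper quartile or by total count, no filter or a stricter one, limma voom (limma 3.58.1), DESeq2 1.42.0 and leaving out each library. Scripts were tested on simulated counts.

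Members and lists were chosen with earlier results of these data known. CPM per library are given for HSF1, HSF2, HSPB1 and, in each other class, for up to 4 members with the largest fold change and the most abundant member per length, and up to 3 genes that passed are named per further list. Some genes of these lists are not reported here by name and stay in the counts. Upstream windows come from RefSeq, GRCh38.p14.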

Additional observations from a re-analysis of the deposited data

Results flagged for a closer look

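Within each group of 4 libraries the gap of the highest or lowest library to its neighbour was compared with the group's range. In 96 groups tested (48 genes, both treatments) 6 gaps passed Dixon's 95% limit for 4 values, where chance gives about 1 in 20, or 4.8. Of these 6, 4 were a replicate 1 library. The library labelled DMSO replicate 1 was lowest for AHSA1 (a gap of 0.869 of the range) and highest for FKBP5 (0.892). The library labelled CR31B replicate 1 was lowest for FKBP5 (0.845) and for DNAJB5 (0.951). DMSO replicate 4 was highest for HSPA1A (0.840), a gene counted at 1.27 CPM there, and CR31B replicate 3 was lowest for CCT4 (0.886).

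For 24 members the difference between CR31B and DMSO was itself different in replicate 1 and in replicates 2 to 4 by the interaction term (edgeR, adjusted p under the threshold, 42.5% of all genes). The values that follow are the log2 difference of replicate 1 minus that of replicates 2 to 4. Members that fell in the single-end libraries had positive values, which were 1.60 for HSPA1B, 1.54 for HSPA8, 1.02 for HSP90AA1, 0.96 for AHSA1, 0.43 for CDC37, 0.52 for HSPB1, 0.55 for DNAJA1, 0.60 for DNAJA2, 1.58 for DNAJB1, 1.08 for BAG3, 0.43 for ST13, 0.75 for TCP1, 0.59 for CCT3 and 0.48 for CCT5. Members that rose there had negative values, which were -0.54 for HSF2, -0.49 for HSPA4, -0.42 for PTGES3, -0.92 for FKBP5, -0.52 for DNAJB5, -0.51 for BAG2, -0.49 for STUB1 and -0.41 for CCT7. HSPH1 (-0.54) and HSPBP1 (-0.34) passed this test but not that of the single-end libraries. Replicate 1 has 1 library per group and a layout of its own, so the layout and the replicate cannot be told apart, and whether the labels of that pair are exchanged was not tested.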

How the results depend on the processing

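Of the 23 members that passed in the single-end libraries, 16 kept direction and call under all 16 settings tried, 7 lost the call in at least 1, and BAG2 also changed sign. Of the 25 others 17 passed under some setting. The replicate block raised the members called from 23 to 35 and those lower from 15 to 23. With GC and length offsets 5 members rose, and adding the block gave 25 lower. Upper quartile scaling gave 3 higher and 25 lower, total count scaling 4 and 25, and the strict filter (10 CPM in 3 libraries) 24 lower. Genes lower made up 27.0%, 25.1% and 31.4% of all genes tested under these 3 settings in turn. That share was 17.6% in the main fit, 23.1% with the block and 26.5% with block and offsets. Leaving out 1 library gave 21 to 26 members called, 4 to 11 higher (4 without CR31B replicate 4, 5 without DMSO replicate 2), 14 to 17 lower and 3 to 4 past 1.5-fold. In those fits 32.7% to 39.8% of all genes tested passed and 13.0% to 16.5% were lower. The members' median log2 fold change of -0.13 went to -0.22 with upper quartile and -0.21 with total count scaling, and ranged from -0.15 to -0.071 without 1 library (-0.071 without CR31B replicate 3). The median of all genes tested moved as well, from -0.0070 to -0.10 with upper quartile and -0.085 with total count scaling. With GC and length offsets the members' median stayed at -0.13 while some class medians moved. The HSP110 median went from 0.22 to 0.029 with GC and length offsets and to 0.030 with the block added. That of the HSP90 co-chaperones went from -0.19 to -0.29 (upper quartile) and -0.27 (total count), and the mitochondrial one from -0.14 to -0.23 (upper quartile). The DNAJ median went to -0.035 and -0.036 (GC and length offsets, without and with the block), -0.073, -0.056 and -0.020 (upper quartile, total count, strict filter). That of BAG and HSP70 partners went from -0.060 to -0.15 (offsets, with or without the block), -0.16 and -0.14 (upper quartile, total count). Calls lower among the further lists went from 21 to 41 and 37 with these scalings. In all 8 libraries 0 members passed under every setting but 2, with 24 passing without CR31B replicate 1 and 23 without DMSO replicate 1, and the median ranged from -0.13 to -0.048 without 1 library. The cause of these moves was not tested.

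Signs turned in members near 0. HSPA14 went from 0.0057 to -0.0054 (block), -0.0063 (block with offsets), -0.0062 (RLE), -0.092 (upper quartile), -0.075 (total count), -0.0057 (no filter), -0.038 (strict filter), -0.0060 (DESeq2) and -0.0095 (limma voom), and from -0.12 to 0.12 without 1 library. DNAJB4 went to -0.065 with offsets with or without the block, and to -0.033 and -0.016 with upper quartile and total count scaling. BAG2 went to -0.026 with offsets and -0.027 with offsets and block, and HSPE1 to 0.0077 and 0.0079. CCT4 went to -0.071, -0.053 and -0.017 (upper quartile, total count, strict filter). Without 1 library CCT4 ranged from -0.0094 to 0.080 (-0.0030 without CR31B replicate 4), HSPA4L from -0.072 to 0.046, DNAJC7 from -0.040 to 0.025, CCT6A from -0.080 to 0.036 and HSPA9 from -0.065 to 0.049. HSPA1A reached at most 1.27 CPM and HSPA2 at most 0.390 CPM in any library, so few counts stand behind them. For HSPE1 (at most 5.04 CPM) the shared annotation given above makes the counts uncertain, and DNAJA4 had no counts.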
